A study of Homo sapiens with 22 samples.

Results

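The NR4A orphan nuclear receptors NR4A1, NR4A2 and NR4A3 were examined in MDA-MB-231 cells, an established human triple-negative breast cancer line, after treatment with different ligands of the glucocorticoid receptor (GR). The members were the rows carrying these symbols, 3 of the 20668 gene symbols measured by RNA-seq and 3 of the 12713 that reached an RPKM of 0.5 in at least 2 samples. RPKM is a read count scaled to transcript length and to the mapped reads of the sample, so levels can be set side by side between genes. The 3 genes were chosen by their measured RPKM over the 5 groups, for the size and time course of their response to Compound A (CpdA) against dexamethasone (Dex), so their own levels and differences are given as a description, without a test.

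The 10 RNA samples formed 5 groups of 2, namely vehicle, 100 nM Dex for 2 h or 4 h, and 10 uM CpdA for 2 h or 4 h. All cells had been kept for 3 days in phenol red-free medium with charcoal-stripped serum, which is low in steroid hormones. Dex belongs to the synthetic glucocorticoids, whereas CpdA is a non-steroidal GR ligand derived from a plant compound. The doses of the ligands differed, so their values stand side by side and do not compare potency. No time was given for vehicle in the labels, although the headings of the deposited tables carry 2h for vehicle replicate 1 and 4h for vehicle replicate 2. Nothing in the labels said that replicates came from separate cultures. The p-values therefore weigh a difference against the spread between these samples, pooled over the 5 groups.

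NR4A receptors bind DNA through the zinc fingers typical of nuclear receptors, but their ligand-binding pocket is filled by bulky side chains and no classical hormone is needed for their activity. Their activity is therefore set largely by how much of each protein is made. The genes are immediate-early genes, transcribed within minutes of growth factors, stress or cyclic AMP, the last through CREB bound at cyclic AMP response elements (CREs) near their start sites. The proteins bind as monomers to the NBRE, the octamer AAAGGTCA, and have been studied in T cells, dopamine neurons, liver and several cancers.

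On the GRCh37 assembly used for the alignment, NR4A1 lay on the plus strand of chromosome 12 at 52416616 to 52453291, NR4A2 on the minus strand of chromosome 2 at 157180949 to 157198860, and NR4A3 on the plus strand of chromosome 9 at 102584137 to 102629173. Their main annotated transcripts had 7, 8 and 8 exons and 2485, 3472 and 5604 bases. The antisense gene NR4A1AS overlapped NR4A1, and the long noncoding gene STX17-DT on the opposite strand spanned NR4A3. Use of the read strand in counting was not given in the sources used here, so antisense reads cannot be told apart from those of NR4A1 and NR4A3.

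The stretch of 250 bases before a gene's start was taken from RefSeq (GRCh38.p14) to show where CREs stand in the promoter of NR4A3, and in the 3 windows with at least 2 core matches among the 10 genes whose expression most resembled that of the family. Capitals mark each match to the CRE core TGACG or its reverse complement CGTCA, and a full CRE, TGACGTCA, contains 2 overlapping cores and reads the same on each strand.
NR4A3 (chr9:99821635-99821884, plus strand): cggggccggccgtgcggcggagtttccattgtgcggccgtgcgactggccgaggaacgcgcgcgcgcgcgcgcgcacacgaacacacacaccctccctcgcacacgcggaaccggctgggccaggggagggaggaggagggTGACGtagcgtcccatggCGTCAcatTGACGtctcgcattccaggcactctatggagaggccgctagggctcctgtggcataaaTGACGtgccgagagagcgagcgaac
AVPI1 (chr10:97687242-97687491, minus strand): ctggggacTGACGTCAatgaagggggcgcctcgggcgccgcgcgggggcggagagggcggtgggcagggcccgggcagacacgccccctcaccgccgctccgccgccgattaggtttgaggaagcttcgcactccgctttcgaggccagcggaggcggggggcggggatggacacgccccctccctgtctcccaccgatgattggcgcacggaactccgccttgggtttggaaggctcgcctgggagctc
PPP1R15A (chr19:48872171-48872420, plus strand): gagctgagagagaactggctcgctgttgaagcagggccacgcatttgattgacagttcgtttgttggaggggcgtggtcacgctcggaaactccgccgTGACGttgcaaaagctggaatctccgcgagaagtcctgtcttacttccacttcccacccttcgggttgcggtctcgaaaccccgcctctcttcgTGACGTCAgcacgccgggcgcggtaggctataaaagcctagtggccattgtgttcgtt
EGR1 (chr5:138465229-138465478, plus strand): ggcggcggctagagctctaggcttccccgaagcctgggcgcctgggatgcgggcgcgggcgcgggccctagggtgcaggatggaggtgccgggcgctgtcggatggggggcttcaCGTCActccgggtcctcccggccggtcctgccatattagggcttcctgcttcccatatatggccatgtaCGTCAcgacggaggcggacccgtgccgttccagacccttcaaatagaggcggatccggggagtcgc
The NR4A3 window held 4 CRE cores, whose first bases stood 109, 91, 83 and 25 bases before the start, and no full CRE. Of all 35116 promoter windows of this length in the table, 21.2% held at least 1 core and 0.236% held 4 or more, while 1.65% held the full CRE and 1.05% the NBRE on either strand. The AVPI1 and PPP1R15A windows each held 1 full CRE, and PPP1R15A had a further core upstream of it. EGR1 had 2 cores. Neither of the 2 NR4A1 windows in the table held a core, a full CRE or an NBRE. On GRCh37 its main transcript starts at 52445226, within the gene, and these windows were not matched to that start. Whether the promoter of the main transcript holds a core was therefore not examined. NR4A2 was not in the table. A match is a run of letters and says nothing of whether a factor was bound.

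The samples were alike in depth and in cell markers. Spacing of the low RPKM values gave an estimated 51300000 to 62100000 mapped reads per sample, with the vehicle samples at 51300000 and 51900000. The mesenchymal markers VIM, AXL and CD44 were high in every sample, at 1267 to 1464, 212.2 to 264.1 and 119.7 to 182.4 RPKM, and ESR1 and PGR did not exceed 0.005 RPKM. SPARC, listed as a marker of this line, was low at 0.15 to 0.27 RPKM, and the luminal and HER2 genes KRT19, ERBB2 and GATA3, listed as low, were present at 256.7 to 370.5, 15.9 to 21.6 and 3.7 to 6.6 RPKM. Of the 6 blood and endothelial markers in the tables, 5 stayed under 0.5 RPKM in every sample. Dex responses were plain: FKBP5, a GR co-chaperone induced by glucocorticoids, was at 5.94 and 7.06 RPKM in vehicle, 75.0 and 73.4 RPKM after Dex for 2 h, and 5.97 and 6.08 RPKM after CpdA for 2 h.

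NR4A1, also called Nur77, is the member best known from T cell activation and from apoptosis. Its level was 1.75 and 1.04 RPKM in the vehicle samples. Dex gave 1.26 and 1.49 RPKM at 2 h and 1.96 and 1.90 RPKM at 4 h. CpdA gave 26.9 and 30.3 RPKM at 2 h and 7.30 and 8.54 RPKM at 4 h. Every CpdA sample was thus above every vehicle and Dex sample, and the 2 h samples were above the 4 h samples. The Dex 2 h samples lay between the vehicle samples, and the Dex 4 h samples lay above both.

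NR4A2, or Nurr1, is required for midbrain dopamine neurons. The vehicle samples had 2.23 and 1.49 RPKM. Dex gave 0.549 and 0.661 RPKM at 2 h and 0.596 and 0.635 RPKM at 4 h, and CpdA gave 24.2 and 22.0 RPKM at 2 h and 6.05 and 5.73 RPKM at 4 h. In contrast to NR4A1, all 4 Dex samples were below both vehicle samples. All 4 CpdA samples were above them.

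NR4A3, or NOR-1, was the least abundant member in every sample. It had 0.322 and 0.156 RPKM in vehicle, 0.0816 and 0.0944 RPKM after Dex for 2 h, and 0.0789 and 0.0874 RPKM after Dex for 4 h. With CpdA it had 6.20 and 6.74 RPKM at 2 h and 2.10 and 2.53 RPKM at 4 h. NR4A3 therefore followed the order of NR4A2, with Dex below vehicle and CpdA above it. These Dex values rested on an estimated 24 to 33 reads per sample against 45 and 92 reads in vehicle, and NR4A3 passed the filter on low values only through its 4 CpdA samples, whereas NR4A1 and NR4A2 reached 0.5 RPKM in all 10.

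**Figure D1:**
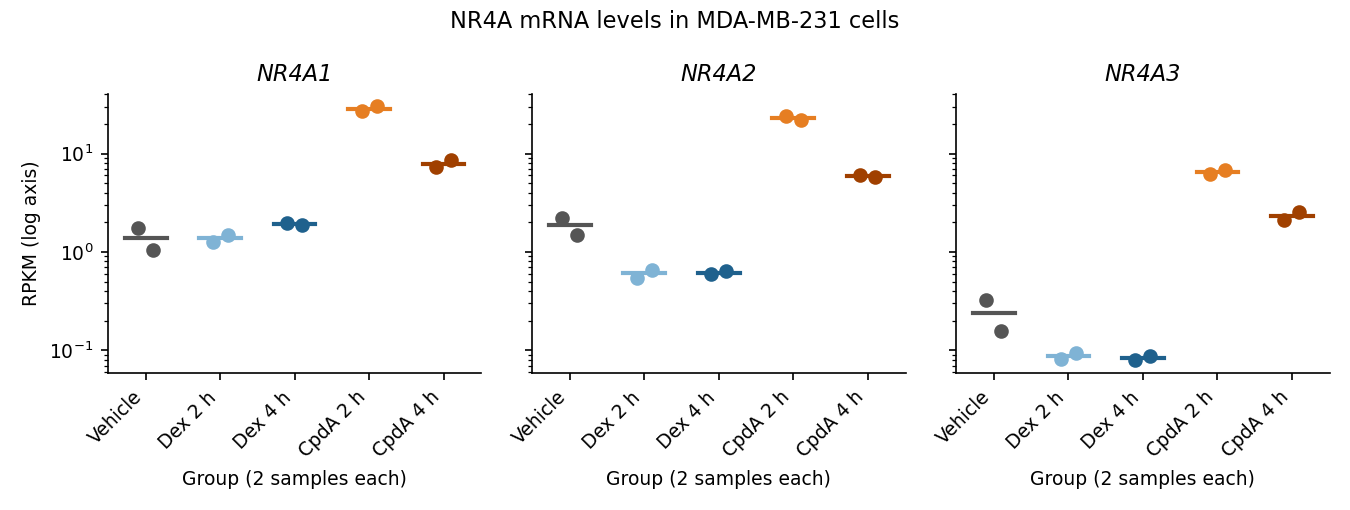
RPKM on a log axis for NR4A1, NR4A2 and NR4A3 in the 5 groups, with a point for each of the 2 samples and a line at their mean. In each panel the CpdA 2 h samples are highest and the CpdA 4 h samples second, and the Dex samples lie below the vehicle samples for NR4A2 and NR4A3 but not for NR4A1.

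In means, NR4A1 went from 1.40 ± 0.50 RPKM (SD, n = 2) in vehicle to 28.6 ± 2.4 at 2 h of CpdA, 20.5 times the vehicle mean. NR4A2 went from 1.86 ± 0.52 to 23.1 ± 1.5 RPKM (SD, n = 2), 12.4 times the vehicle mean, and NR4A3 from 0.238 ± 0.117 to 6.47 ± 0.38 RPKM (SD, n = 2), 27.1 times. Among all 12713 genes the log2 differences of NR4A3, NR4A1 and NR4A2 ranked 2, 3 and 4 from the highest at this time. On the log2(RPKM + 0.1) scale, which understates the change of low genes such as NR4A3, the differences were 4.30 ± 0.19 (SE) for NR4A1, 3.59 ± 0.16 for NR4A2 and 4.32 ± 0.22 for NR4A3.

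At 4 h of CpdA the levels were lower than at 2 h but still above vehicle. NR4A1 was at 7.92 ± 0.88 RPKM (SD, n = 2), 27.6% of its 2 h mean and 5.66 times vehicle. NR4A2 was at 5.89 ± 0.22 RPKM (SD, n = 2), 25.5% of the 2 h mean and 3.17 times vehicle, and NR4A3 at 2.31 ± 0.31 RPKM (SD, n = 2), 35.8% and 9.69 times. The log2 differences from 2 h to 4 h were -1.84 ± 0.19, -1.95 ± 0.16 and -1.45 ± 0.22 (SE) for NR4A1, NR4A2 and NR4A3, ranking 6, 4 and 19 from the lowest of 12713 genes. For the 40 genes outside the family called higher after CpdA for 2 h, the median level at 4 h was 67.6% of that at 2 h. Their range was 22.7% to 386%, and 1, 1 and 3 of them retained less than NR4A1, NR4A2 and NR4A3 did. The members were chosen in part for this time course, so their place among these genes is a description and not a test. For CpdA 4 h against both vehicle samples, the 3 members ranked 12, 35 and 6 from the highest. Vehicle replicate 1 carries 2h in its heading and replicate 2 carries 4h. Against replicate 1 alone, the log2 differences at CpdA 2 h were 3.95, 3.31 and 3.96. Those at CpdA 4 h were 2.80, 1.91 and 3.23 against replicate 2 alone, a smaller fall for each member. The part of vehicle in the fall from 2 h to 4 h was not tested.

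With Dex the members parted. NR4A2 had a mean of 0.605 ± 0.079 RPKM at 2 h and 0.615 ± 0.028 RPKM at 4 h (SD, n = 2), with log2 differences of -1.45 and -1.43 ± 0.16 (SE). NR4A3 had means of 0.0880 ± 0.0091 and 0.0832 ± 0.0060 RPKM (SD, n = 2), with log2 differences of -0.80 and -0.84 ± 0.22 (SE). NR4A1 had means of 1.38 ± 0.16 and 1.93 ± 0.04 RPKM (SD, n = 2), with log2 differences of 0.02 and 0.48 ± 0.19 (SE). NR4A2 ranked 55 from the lowest at 2 h of Dex and NR4A3 185, whereas NR4A1 stood at 4801 from the highest. Between 2 h and 4 h of Dex the log2 differences were 0.46 for NR4A1, 0.02 for NR4A2 and -0.04 for NR4A3, so that the low levels of NR4A2 and NR4A3 at 2 h were also seen at 4 h.

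Ordered by mean level, NR4A2 had Dex 2 h and Dex 4 h lowest and overlapping, then vehicle, CpdA 4 h and CpdA 2 h, each apart from its neighbour. NR4A3 had the same order with the Dex groups exchanged, again overlapping. For NR4A1, Dex 2 h and vehicle overlapped at the low end, followed by Dex 4 h, CpdA 4 h and CpdA 2 h without overlap.

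Set side by side at the same time, CpdA minus Dex was 4.28, 5.04 and 5.13 on the log2 scale for NR4A1, NR4A2 and NR4A3 at 2 h, and 1.98, 3.07 and 3.71 at 4 h. The wider separation of NR4A2 and NR4A3 held their low levels under Dex as well as their high levels under CpdA.

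**Figure D2:**
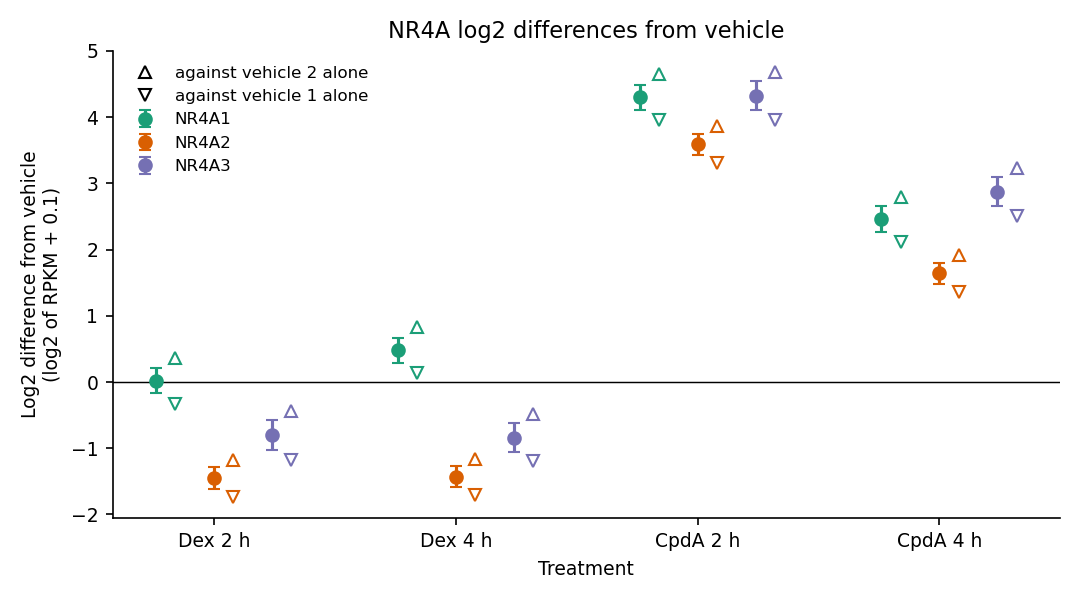
Log2 differences from vehicle on the log2(RPKM + 0.1) scale for each member under the 4 treatments, with filled circles and SE bars against both vehicle samples and open triangles against either vehicle sample alone. NR4A1 at Dex 2 h changes sign between the triangles, at 0.36 and -0.33, and each other pair of triangles stays on its side of 0.

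The vehicle samples were the least alike pair for these genes. Replicate 1 was 1.68 times replicate 2 for NR4A1, 1.49 times for NR4A2 and 2.07 times for NR4A3, a log2 gap of 0.69, 0.55 and 0.72, and 1.88%, 2.85% and 1.79% of all genes differed at least that much between these 2 samples. The gap was shared with other inducible genes: 29 of 34 immediate-early genes were higher in vehicle replicate 1 (median log2 gap 0.38), and all 14 tested cyclic AMP-responsive genes were (median 0.33), against 50.8% of all genes. Against vehicle replicate 1 alone, the log2 differences at CpdA 2 h were 3.95, 3.31 and 3.96 for NR4A1, NR4A2 and NR4A3, and against replicate 2 alone 4.65, 3.86 and 4.68. At Dex 2 h they were -0.33, -1.73 and -1.17 against replicate 1, and 0.36, -1.18 and -0.44 against replicate 2. The part of sampling time in this gap was not tested.

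The balance within the family also moved. The 3 levels summed to 3.50 ± 1.14 RPKM in vehicle, 2.07 ± 0.25 after Dex for 2 h, 2.63 ± 0.01 after Dex for 4 h, 58.2 ± 1.2 after CpdA for 2 h and 16.1 ± 0.96 after CpdA for 4 h (SD, n = 2). NR4A2 was the leading member in vehicle with 53.6% of the sum, ahead of NR4A1 with 39.8% and NR4A3 with 6.6%. After Dex NR4A1 made up 66.5% at 2 h and 73.4% at 4 h, and NR4A2 29.2% and 23.4%. After CpdA NR4A1 held 49.2% and 49.0%, NR4A2 39.7% and 36.6%, and NR4A3 11.1% and 14.3%, its highest shares. RPKM is relative to all mapped reads, so a change in total RNA per cell or in the share of responding cells cannot be told apart from a change in each cell.

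The family was then placed among the nuclear receptors. Of the receptor genes, 46 were measured, and in vehicle NR4A2, NR4A1 and NR4A3 took places 21, 23 and 26 by mean RPKM. The most abundant were NR1H2, the oxysterol receptor LXR beta, at 45.8 RPKM, NR2F2 at 38.5, NR2F6 at 29.9, PPARD at 23.1 and NR3C1, which encodes GR itself, at 21.6. At 2 h of CpdA NR4A1 reached place 4, NR4A2 place 7 and NR4A3 place 13, and at 4 h they held places 10, 12 and 21. In Dex they stood at 21, 23 and 27 at 2 h and at 21, 23 and 30 at 4 h.

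**Figure D3:**
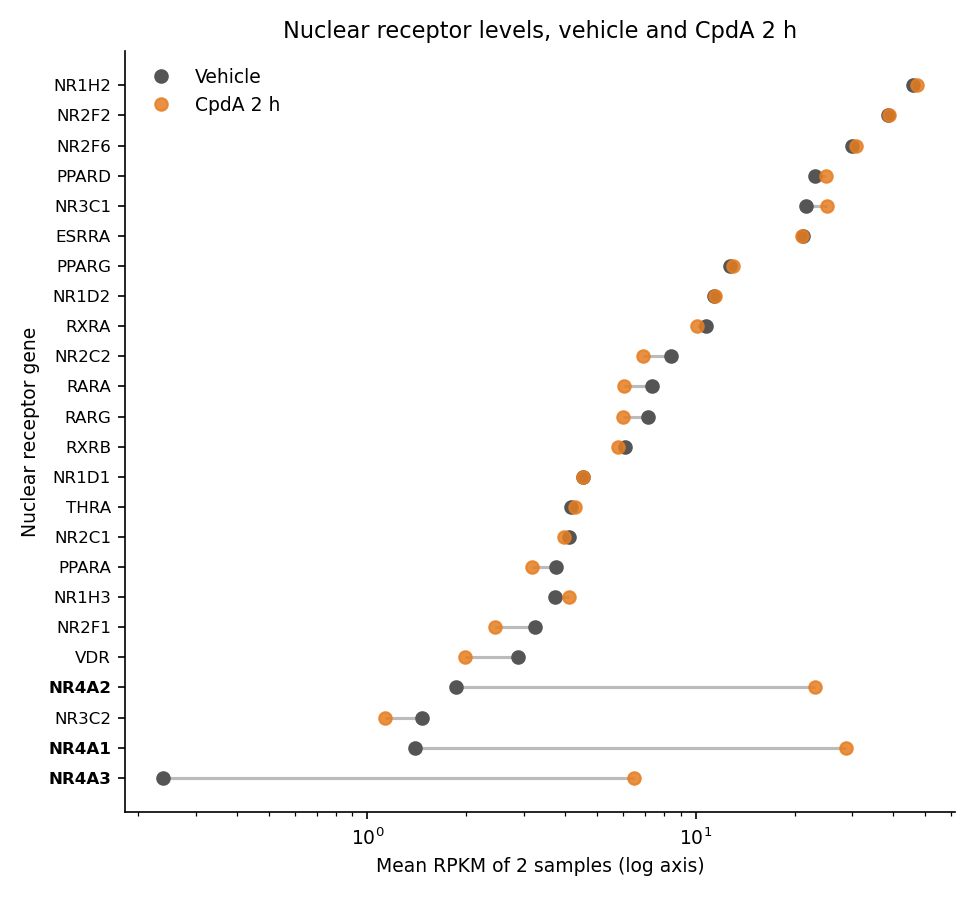
Mean RPKM of 2 samples on a log axis for NR4A1, NR4A2, NR4A3 and the other nuclear receptor genes with at least 0.5 RPKM in vehicle, joined between vehicle (grey) and CpdA 2 h (orange). The NR4A genes go from the lower end of the order to 28.6, 23.1 and 6.47 RPKM, while the other receptors keep close to their vehicle level.

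Outside the family, 22 receptor genes passed the filter. None was called at either CpdA time, where a call means a change over 2-fold with an adjusted p under 0.05 in limma, and where 0.488% and 0.889% of all genes were called at 2 h and 4 h. At an unadjusted p under 0.05, met by 20.3% and 33.2% of all genes, 1 of them was higher and 5 lower at 2 h, and 2 higher and 12 lower at 4 h, all by less than 2-fold. Their median log2 difference was -0.01 at 2 h and -0.23 at 4 h, against -0.02 and -0.04 over all genes. Dex called 3 of the 22 at 2 h and 2 at 4 h, beside 2.01% and 3.78% of all genes. THRA, a thyroid hormone receptor, rose from 4.66 and 3.67 RPKM to 9.35 and 8.94 RPKM at 2 h (log2 difference 1.13, adjusted p = 8.3e-05) and to 12.3 and 13.3 RPKM at 4 h. NR1D1, the clock repressor REV-ERB alpha, rose at 2 h (1.04, adjusted p = 6.3e-06), and NR2F2, or COUP-TFII, fell by 1.04 at 2 h (adjusted p = 4.8e-07) and by 1.65 at 4 h (adjusted p = 2e-08). Both of the higher calls at 2 h rested on the choice of vehicle sample, THRA being at 0.96 against replicate 1 alone and NR1D1 at 0.99 against replicate 2 alone.

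NR3C1, the receptor of the ligands, had 22.9 and 20.4 RPKM in vehicle, 14.6 and 14.7 after Dex for 2 h, and 9.96 and 12.1 after Dex for 4 h. CpdA gave 24.7 and 25.5 RPKM at 2 h and 23.0 and 22.1 RPKM at 4 h. The log2 differences under Dex, -0.56 (adjusted p = 0.0027) and -0.97 (adjusted p = 3.7e-05), did not reach 2-fold, although the 4 h value was -1.06 against vehicle replicate 1 alone and -1.11 without Dex 4 h replicate 2. Those under CpdA were 0.22 (adjusted p = 0.19) and 0.06 (adjusted p = 0.68).

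Immediate-early genes are the class to which the NR4A genes belong, and 34 others passed the filter. At CpdA 2 h, 9 of them rose and none fell, beside 0.338% and 0.149% of all genes, with a median log2 difference of 0.64 against -0.02 over all genes. At CpdA 4 h, 6 rose and 1, DUSP6, fell, beside 0.535% and 0.354% of all genes, with a median of -0.04. At Dex 2 h, 5 rose and 6 fell, beside 1.34% and 0.676% of all genes. At Dex 4 h, 3 rose and 10 fell, beside 2.1% and 1.68% of all genes, with a median of -0.60 against -0.05 over all genes. These counts moved with the vehicle sample used. Without vehicle replicate 1 more of them rose at CpdA 2 h, and more of all genes did too. Without vehicle replicate 2 more of them fell at Dex 4 h, as did more of all genes. The numbers that rose at Dex 4 h and fell at CpdA 4 h moved as well.

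EGR1, a zinc finger transcription factor, had 6.84 and 3.12 RPKM in vehicle, 45.7 and 48.6 at CpdA 2 h, then 13.2 and 15.2 at CpdA 4 h, a log2 rise of 3.32 (adjusted p = 0.00041) and then 1.60 (adjusted p = 0.006). It did not pass in Dex, where its log2 differences were 0.37 and 0.49, with the latter at 1.05 and called against vehicle replicate 2 alone. ATF3, a stress-induced factor of the CREB family, went from 13.1 and 5.58 RPKM to 67.5 and 64.2 at CpdA 2 h, then 31.6 and 31.1 at CpdA 4 h, with adjusted p = 0.00067 and 0.0022, and was lower at Dex 4 h (log2 -1.28, adjusted p = 0.01), a call lost at -0.67 against vehicle replicate 2 alone. EGR1 and ATF3 thus rose with CpdA as the NR4A genes stood higher, and fell between 2 h and 4 h, by 1.72 and 1.07 on the log2 scale, in a direct comparison that called 0.378% of all genes. Under Dex, where 0.771% of all genes were called between the times, ATF3 fell by 1.21.

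From CpdA 2 h to 4 h, the log2 difference was above 0 for 3 of the 34 class members, with a median of -0.63 against -0.01 over all genes. Limma called 6 lower and 1 higher, beside 0.378% of all genes in either direction. DUSP1, IER3 and HBEGF were at -0.91, -0.91 and -0.93 there, under 2-fold, and ARC at 1.64. Against vehicle, other members of the class went other ways than EGR1 and ATF3. DUSP1, a phosphatase of MAP kinases, rose with both ligands, from 14.6 and 11.6 RPKM to 101.4 and 100.6 at Dex 2 h but 90.8 and 86.5 at CpdA 2 h, log2 rises of 2.95 and 2.76. ARC, an activity-regulated cytoskeletal protein, also rose in all 4 comparisons, from low levels of 0.0530 and 0.111 RPKM to at most 1.39 RPKM at CpdA 4 h. With a pseudocount of 1 its log2 differences were under 2-fold at Dex 2 h (0.66), Dex 4 h (0.38) and CpdA 2 h (0.29). At CpdA 2 h its difference of 1.23 came to 0.96 with quantile normalization and 1.08 without CpdA 2 h replicate 1. In limma on the 4 samples of that comparison alone the call was lost (adjusted p = 0.085). IER3 and HBEGF, a regulator of survival and a ligand of the EGF receptor, fell under Dex by 3.00 and 2.52 at 2 h and by 3.05 and 3.03 at 4 h on the log2 scale. At CpdA 2 h IER3 differed by 0.79 (adjusted p = 0.069), or by 1.23 and called against vehicle replicate 2 alone, and HBEGF by 0.41 (adjusted p = 0.34). Chosen after their values were seen, the other genes that Dex raised were ZFP36 at both times and KLF4 and KLF6 at 2 h, KLF6 being at 0.96 against vehicle replicate 1 alone.

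The cyclic AMP route was followed through its regulators and its responsive genes. Of 18 regulators tested (CREB, its coactivators, protein kinase A subunits and salt-inducible kinases), SIK1, itself a known CREB target, was the only call. It was called higher at Dex 2 h and CpdA 2 h, beside 1.34% and 0.338% of all genes. Its log2 differences were 1.23 at Dex 2 h (adjusted p = 0.0044) and 1.06 at CpdA 2 h (adjusted p = 0.019). Against vehicle replicate 1 alone these were 0.80 and 0.63, under 2-fold, and without either CpdA 2 h sample the adjusted p was 0.12. No regulator was called at 4 h, where an unadjusted p under 0.05 was met by 3 in Dex and 5 in CpdA, beside 38.4% and 33.2% of all genes. Of 14 responsive genes tested, 8 rose and none fell at CpdA 2 h (median log2 difference 1.06, against -0.02 over all genes), beside 0.338% of all genes higher, and 6 rose at CpdA 4 h (median 0.84 against -0.04), beside 0.535%. With Dex 5 rose at 2 h, beside 1.34% of all genes, and 3 rose and 2 fell at 4 h, beside 2.1% and 1.68%, with medians of 0.41 and 0.15 against -0.02 and -0.05 over all genes. At CpdA 2 h the count was 5 with a pseudocount of 1, where 37 of all genes were called in either direction, against 62 in the main fit. The counts at CpdA 2 h and Dex 4 h also moved with the vehicle sample used, and calls over all genes moved too.

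RASD1, a small GTPase induced by glucocorticoids and cyclic AMP, had 3.01 and 2.12 RPKM in vehicle, 28.2 and 25.0 at CpdA 2 h, then 7.87 and 7.95 at CpdA 4 h, log2 rises of 3.34 (adjusted p = 2.8e-06) and 1.61 (adjusted p = 1e-04). Its Dex 2 h samples stood at 6.82 and 7.29 RPKM, a log2 rise of 1.45 (adjusted p = 0.00012). FOS, a subunit of AP-1, went from 1.60 and 1.47 RPKM to 11.1 and 10.8 at CpdA 2 h, then 8.21 and 8.43 at CpdA 4 h (adjusted p = 1.7e-07 and 1.3e-07). PER1, a clock gene, showed the converse, with 34.9 and 37.9 RPKM at Dex 2 h but 3.96 and 3.86 at CpdA 2 h, log2 rises of 4.40 and 1.22 (adjusted p = 2.6e-07 and 0.0033), the latter 0.89 against vehicle replicate 1 alone. RGS2, an inhibitor of G protein signalling, rose with Dex by 1.29 and 2.12 and differed by 0.87 and 0.86 with CpdA, under 2-fold. DUSP1, ATF3 and FOS are also among the immediate-early genes.

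**Figure D4:**
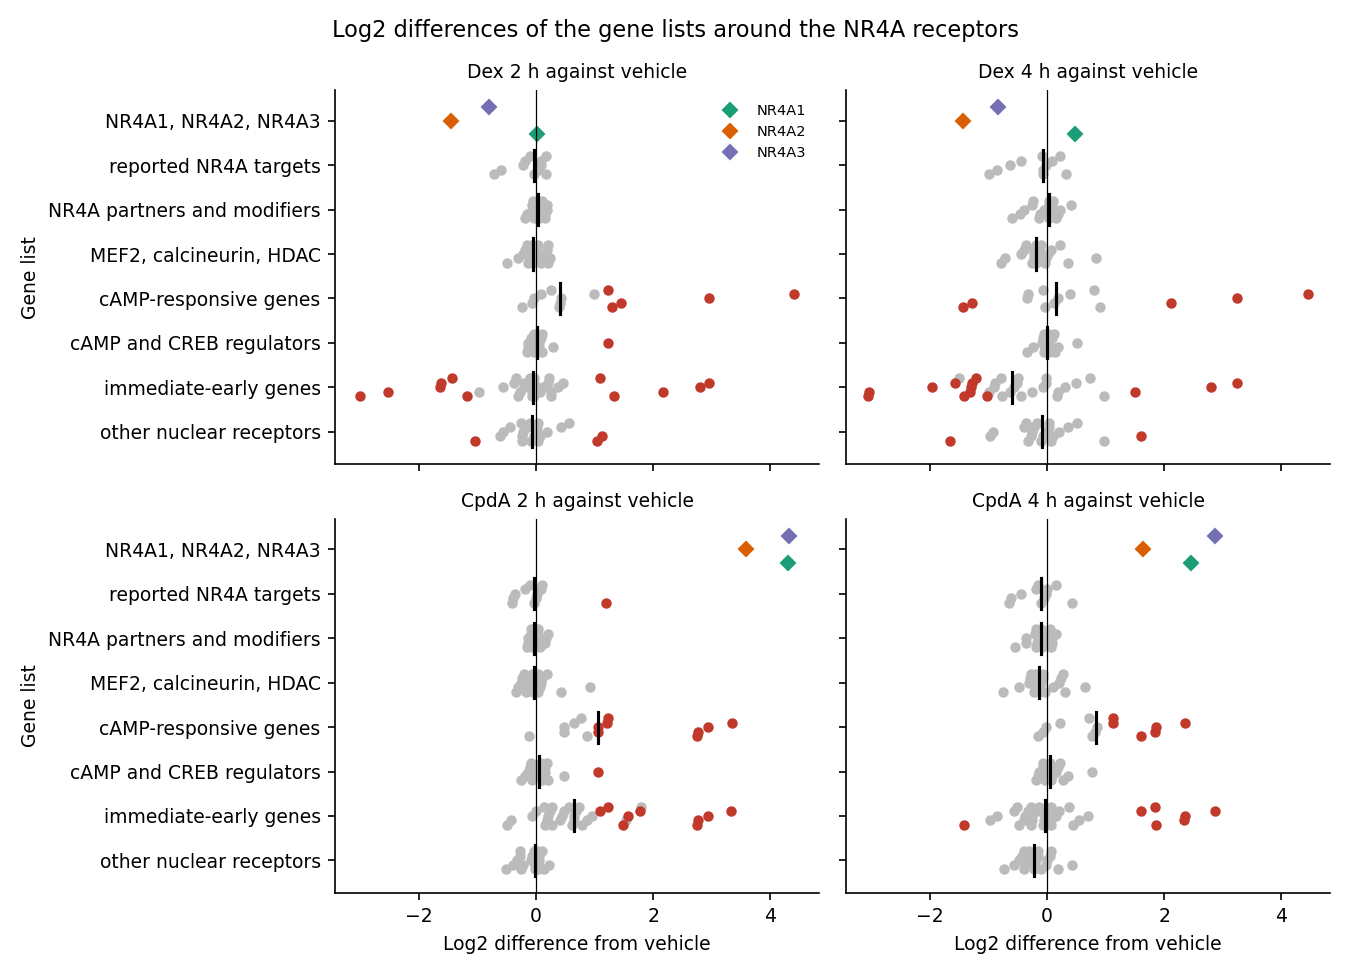
Log2 differences from vehicle of the genes in 7 lists under each treatment, with a point per gene (red where called, grey where not), a black bar at the list's median, and diamonds for NR4A1, NR4A2 and NR4A3. At CpdA 2 h the NR4A diamonds stand at 3.59 to 4.32, the called points belong mostly to the immediate-early and cyclic AMP-responsive lists, and the lists of other nuclear receptors, partners and MEF2 regulators hold grey points alone.

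MEF2 factors, released by calcineurin and held by class IIa histone deacetylases, drive NR4A1 in lymphocytes. None of the 22 genes of that list was called by limma in any of the 4 comparisons with vehicle. RCAN1 fell just short of 2-fold at CpdA 2 h, with a log2 difference of 0.93 (limma adjusted p = 0.00018). It was at 0.65 at CpdA 4 h, and at -0.13 and -0.72 at Dex 2 h and 4 h. An unadjusted p under 0.05 was met by 7 and 11 of the 22 with Dex and by 6 and 11 with CpdA at 2 h and 4 h. The shares of all genes were 21.8% and 38.4% with Dex and 20.3% and 33.2% with CpdA. None of 19 partners and modifiers of the NR4A proteins, among them the heterodimer partners RXRA and RXRB, was called either, and 5, 9, 1 and 11 of them had an unadjusted p under 0.05 in the same order and beside the same shares of all genes. Of the 11 at CpdA 4 h, 1 was higher and 10 were lower, where over all genes 1456 were higher and 2767 lower. RXRA had 10.9 and 10.7 RPKM in vehicle and 9.95 and 10.2 RPKM at CpdA 2 h. At CpdA 4 h it had 8.50 and 8.38 RPKM, a log2 difference of -0.35 (limma adjusted p = 0.00072).

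Of 26 genes reported as NR4A targets in other tissues, 11 passed the filter, and the only call was BDNF at CpdA 2 h, beside 0.488% of all genes. BDNF, a neurotrophin, had 8.36 and 6.26 RPKM in vehicle and 17.2 and 16.1 RPKM at CpdA 2 h, a log2 rise of 1.19 (adjusted p = 0.00048) that came to 0.98, under 2-fold, against vehicle replicate 1 alone. At CpdA 4 h it stood at 9.86 and 9.52 RPKM (log2 difference 0.42, adjusted p = 0.028). With Dex it was at 4.36 and 4.43 RPKM at 2 h (-0.71, adjusted p = 0.0029) and 3.92 and 3.99 RPKM at 4 h (-0.86, adjusted p = 0.00041), under 2-fold, with the latter at -1.06 and called against vehicle replicate 1 alone. The list's median was -0.04 at CpdA 2 h and -0.11 at CpdA 4 h, against -0.02 and -0.04 over all genes. At an unadjusted p under 0.05, 1 of the 11 was higher and 4 lower at CpdA 2 h, and 2 higher and 5 lower at CpdA 4 h. With Dex these were 0 higher and 3 lower at 2 h, and 2 higher and 4 lower at 4 h. The shares of all genes were 20.3% and 33.2% with CpdA and 21.8% and 38.4% with Dex. Protein levels of the NR4A receptors were not analysed here.

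The genes whose pattern over the 10 samples was most like that of the family were found by Pearson's r between log2(RPKM + 0.1) and the mean of the members' z-scores, among 954 genes whose group means spanned at least 1 on the log2 scale. These r values are a description over samples that share 5 groups, and the choice of measure matters: ranked by Spearman's rho, 2 of the 10 genes named here were again among the closest 10. The closest 10 were CHAC1 (r = 0.984), AVPI1 (0.983), BRE-AS1 (0.978), FOS (0.959), BDNF (0.957), PPP1R15A (0.955), ATF3 (0.951), IL24 (0.946), EGR1 (0.944) and MAFK (0.944). Over all 954 genes the median r was -0.045, and 26 exceeded 0.9. Within the family r was 0.983 for NR4A2 with NR4A3, 0.968 for NR4A1 with NR4A3 and 0.941 for NR4A1 with NR4A2.

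CHAC1, which degrades glutathione and is induced by ATF4, had 15.0 and 12.8 RPKM in vehicle, 10.6 and 10.6 after Dex for 2 h, 10.4 and 11.6 after Dex for 4 h, 40.5 and 37.1 at CpdA 2 h, then 30.4 and 30.9 at CpdA 4 h. AVPI1 had 12.2 and 9.03 RPKM in vehicle, 31.3 and 28.8 at CpdA 2 h, then 23.6 and 22.2 at CpdA 4 h. PPP1R15A, or GADD34, a phosphatase subunit that reverses the integrated stress response, had 117.5 and 95.5 RPKM in vehicle, 70.5 and 76.1 after Dex for 2 h but 202.7 and 196.8 at CpdA 2 h. All 3 were highest at CpdA 2 h, yet they kept more of that level at 4 h than the NR4A genes did, at 79.0% for CHAC1, 76.3% for AVPI1 and 82.7% for PPP1R15A. EGR1, at 30.2%, was the gene among the 10 that retained the least. IL24, a cytokine of the IL-10 family, kept 101%.

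Member by member, NR4A1 was nearest to EGR1 (r = 0.979), NR4A3 and FOS (0.960). NR4A2 was nearest to BDNF (0.989), NR4A3 and PPP1R15A (0.977), and NR4A3 to CHAC1 (0.994), AVPI1 (0.991) and NR4A2. The genes most unlike the family were ZNF792 (r = -0.979), PRKAB2 (-0.971), CDK6 (-0.955), ERCC6-PGBD3 (-0.936) and ZNF485 (-0.931). CDK6, a cyclin-dependent kinase of G1, had 8.51 and 10.2 RPKM in vehicle, 12.3 and 11.5 at Dex 2 h but 5.34 and 5.46 at CpdA 2 h, and PRKAB2, a subunit of AMP-activated kinase, had 3.79 and 4.11, 4.04 and 4.29, and 2.22 and 2.24 RPKM in the same groups.

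**Figure D5:**
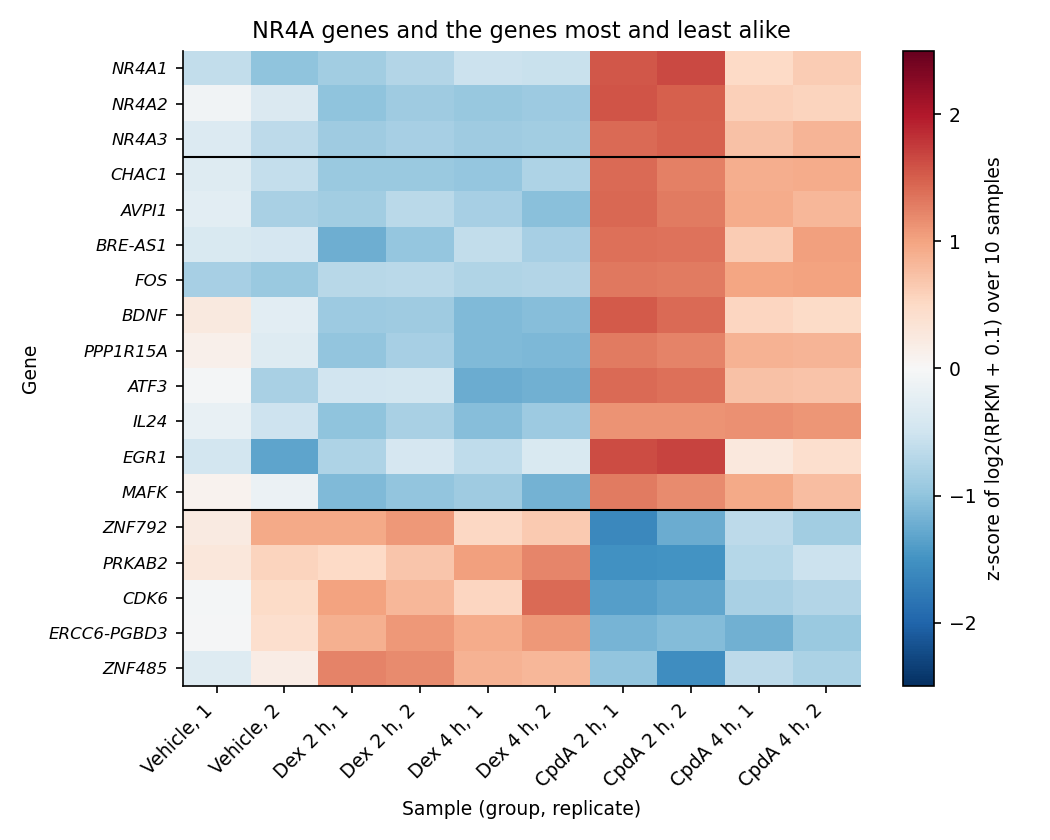
Heat map of z-scores of log2(RPKM + 0.1) over the 10 samples for the 3 NR4A genes, the 10 genes most like them and the 5 least like them, split by black lines. Apart from IL24, which is alike at both CpdA times, the upper blocks are reddest in the CpdA 2 h columns and paler at CpdA 4 h. The lowest block is blue in the CpdA columns.

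Of the 8 closest genes found in the promoter table, 5 had a CRE core in at least 1 window, beside 24.9% of all 27305 symbols, and 2 had the full CRE, beside 2.03%. The cyclic AMP-responsive list, whose genes are known in part for their CREs, had cores in 12 of 17 and the full CRE in 6. Among lists with few or no calls, cores stood in 11 of 18 cyclic AMP and CREB regulators and 7 of 14 partners. In the MEF2 list they stood in 5 of 18, and in the reported NR4A targets in 8 of 19. They stood in 16 of 25 immediate-early genes and 13 of 39 other nuclear receptors. BRE-AS1 and MAFK were not in the table.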

How the data were processed

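Of 22 samples in the series, the 10 RNA-seq samples of MDA-MB-231 cells were used, and the 12 ChIP samples were not analysed here. Per the labels, libraries were made with the Illumina TruSeq kit, and the submitters' processing notes name TopHat2 2.0.13, Bowtie, Partek 6.6 and hg19. The authors deposited RPKM per gene symbol for each sample, and how transcripts were combined per symbol is not given in the sources used here. These tables hold no comparison columns.

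Values were analysed as log2(RPKM + 0.1) for genes with at least 0.5 RPKM in 2 samples, with limma 3.58.1 in R 4.3.3 (linear model over 5 groups, abundance trend, Benjamini-Hochberg adjustment over 12713 genes), tested on simulated data. Calls needed a change over 2-fold and an adjusted p under 0.05. RPKM files hold no counts, so depth was estimated from the step between low values and transcript lengths. Groups came from the labels.

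The members and gene lists were chosen with earlier results of these data known. Genes were named by rule: the members, the 10 most and 5 least alike, the 3 nearest each member, at most 6 called genes per list by size of change, the 5 most abundant receptors, NR3C1, and marker genes. Tables used Python 3.11.15, pandas 2.3.3 and numpy 2.4.6.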

Additional observations from a re-analysis of the deposited data

Results flagged for a closer look

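NR4A2 and NR4A3 moved in opposite directions with the ligands: every CpdA sample was above, and every Dex sample below, both vehicle samples. The CpdA effect minus the Dex effect was 5.04 at 2 h and 3.07 at 4 h for NR4A2 and 5.13 and 3.71 for NR4A3, in log2 units. This difference was not tested, since the genes were chosen for it, and the comparisons share their vehicle samples.

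For some of the other named genes, the level under a ligand differed between its time points by over 2-fold with an adjusted p under 0.05 in limma. The level at CpdA 4 h minus that at CpdA 2 h was 1.64 for ARC, -1.07 for ATF3, -1.72 for EGR1 and -1.73 for RASD1 on the log2 scale. The level at Dex 4 h minus that at Dex 2 h was 1.48 for FKBP5, -1.21 for ATF3 and -1.11 for SIK1. In the direct comparison of 4 h with 2 h, 0.378% of all genes were called under CpdA and 0.771% under Dex. The vehicle samples do not enter these differences, so a change of vehicle over time was not taken off. Vehicle replicate 1, with 2h in its heading, was above replicate 2, with 4h, for ATF3 (13.1 and 5.58 RPKM), EGR1 (6.84 and 3.12), SIK1 (36.9 and 20.4) and RASD1. It was below replicate 2 for ARC and FKBP5. A change in the effect of a ligand cannot be told apart from one in vehicle here.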

How the results depend on the processing

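In 19 alternatives, all 3 members were above vehicle at both CpdA times, lower at 4 h than at 2 h of CpdA, and, for NR4A2 and NR4A3, below vehicle at both Dex times. NR4A1 at Dex 2 h kept its sign in 16 of 19. Many of the 19 cannot change a member's log2 difference, so they say nothing of its sign. These are the other filters, the fit without an abundance trend, the replicate block and the fit to 4 samples. Leaving out a sample of a group outside the comparison cannot change it either. A pseudocount of 1, which compresses low values by its construction, gave log2 differences at CpdA 2 h of 3.64, 3.08 and 2.59 for NR4A1, NR4A2 and NR4A3, and at CpdA 4 h of 1.91, 1.28 and 1.42. It gave -0.82 and -0.18 for NR4A2 and NR4A3 in the 2 h Dex samples, -0.81 and -0.19 in those of 4 h, and -1.18 for NR4A3 between the CpdA times. Its counts of genes called were 165 for 2 h of Dex, 37 for 2 h of CpdA, 64 at CpdA 4 h, 364 for CpdA 4 h against Dex 4 h, 28 for CpdA 4 h against 2 h and 33 for Dex 4 h against 2 h. A pseudocount of 0.01 gave NR4A3 -1.26 and -1.33 in Dex and 4.79 and 3.30 in CpdA, and quantile normalization gave it -1.14 and -1.36 in Dex, for which the cause was not tested. With the 4 samples of a comparison alone, 74 genes were called for CpdA 4 h against 2 h, against 48 with all samples, and 5 immediate-early genes at CpdA 2 h against 9.

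Leaving out 1 sample at a time gave, for NR4A1, NR4A2 and NR4A3 in turn, -0.33 to 0.36, -1.73 to -1.18 and -1.17 to -0.44 with Dex for 2 h, and 0.13 to 0.83, -1.70 to -1.16 and -1.20 to -0.48 with Dex for 4 h. At CpdA 2 h the ranges were 3.95 to 4.65, 3.31 to 3.86 and 3.96 to 4.68, and at CpdA 4 h 2.11 to 2.80, 1.36 to 1.91 and 2.51 to 3.23, with each extreme set by a vehicle sample. Genes called ranged from 47 to 105 at CpdA 2 h, the highest without vehicle replicate 1, and from 24 to 57 for CpdA 4 h against 2 h, the lowest without CpdA 2 h replicate 1. A lone remaining sample was assumed to vary like the other groups. Replicate numbers did not pair the samples: deviations of same-numbered samples correlated at -0.057 to 0.198 (mean 0.054), over 0.1 in 3 of 10 pairs of groups. With the replicate block 62 genes were called at CpdA 2 h and 53 for CpdA 4 h against 2 h. The NR4A1 difference at CpdA 2 h was 4.30, which the block cannot change in this balanced design. Of 42 calls against vehicle among the named genes checked, 30 were also made in every alternative and none turned its sign. This check left out CHAC1, AVPI1, BRE-AS1, PPP1R15A, IL24, MAFK and the 5 least alike genes. Of the 10 genes closest to the members, 2 were shared with a ranking by Spearman's rho and 9 with a pseudocount of 1.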
